A study of Mus musculus with 6 samples.

Results

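The genes described here are 47 that act in DNA replication or in mitosis, 24 replication genes (S-phase members) and 23 mitotic ones. They were chosen by name from these pathways and found by gene symbol in the count table, where all 47 have an entry among 49585 genes. The data are polyA RNA-seq of AML12 cells, a line grown from hepatocytes of a mouse transgenic for human TGF-alpha. The cells received an over-expression construct with the open reading frame of Zac1, a zinc-finger transcription factor encoded by Plagl1, or one with EGFP, a fluorescent control protein, and were analysed 24 h later. Each group has 3 libraries, Zac1 4, 5 and 6 and EGFP 1, 2 and 3. Separate cultures are not named in the labels, so p-values cover only the variation among these 6 libraries, and that variation may be technical. The share of cells that took up a construct is not given in the sources used here, both groups are the same single line, and each library averages over its cells, so that fewer cells of a type and less RNA per cell cannot be told apart.

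A dividing cell copies its DNA in S phase and separates the copies in mitosis, and the genes for these steps are switched on in waves. Replication genes, such as those of the Mcm2-7 helicase, are transcribed from the end of G1 under E2F factors, while mitotic genes, such as those of the cyclin B kinase, peak in G2 and mitosis through promoters with CHR elements and CCAAT boxes bound by MuvB complexes and NF-Y. Both sets are high in growing cultures and fall when cells leave the cycle, and Zac1 is known as a protein that can bring about cell cycle arrest and apoptosis when it is over-expressed.

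The labels were checked first through Plagl1 (ENSMUSG00000019817, GRCm38 chr10:13060504-13131694, plus strand). It had 106033, 135108 and 148382 reads in Zac1 4, 5 and 6, against 39, 79 and 67 reads in EGFP 1, 2 and 3. All Zac1 libraries lay far above all EGFP libraries. As CPM, reads scaled by TMM factors to a library of 1000000 reads, this was 7530 ± 810 in Zac1 libraries and 4.14 ± 1.39 in EGFP libraries (SD, n = 3 each), or 10.83 on the log2 scale (SE 0.15, edgeR adjusted p = 1.54e-15). Library totals ran from 16104498 to 18302538 reads in Zac1 and from 14801240 to 15145092 in EGFP. On the second principal component of all tested genes, which held 15.5% of the variance, Zac1 4 (11.6) and EGFP 1 (18.7) stood apart from the other libraries (-10.6 to -3.51), so counts are also given without them. Of 12 hepatocyte markers, Apoa2 was at 0 in every library, and their summed level was 3886 to 4604 CPM in Zac1 and 3732 to 4301 CPM in EGFP. Markers of fibroblasts and stellate cells summed to 2.24 to 2.88 CPM in Zac1 and 0.604 to 1.01 CPM in EGFP over 8 genes, with Dcn and Lum at 0; those of leukocytes to 1.58 to 1.68 CPM in Zac1 and 1.96 to 2.48 CPM in EGFP over 6 genes, with Cd3e and Itgam at 0; and those of endothelium to 0.747 to 1.25 CPM in Zac1 and 0.537 to 0.877 CPM in EGFP over 5 genes. The part of these small sums in the results below was not tested.

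Promoter letters differed between the classes. RefSeq windows of 300 bases (250 before the start site and 50 from it on, GRCm38.p6) were found for 38 of the 47 genes, 20 replication and 18 mitotic ones, and for 27025 genes in all. Some genes had more than 1 window. There were 25 windows for the replication genes, 18 for the mitotic genes and 32851 in all. A gene was counted if any of its windows held the letters, so genes with more windows had more room for a match. E2F letters were searched as TTTCCCGC, TTTGGCGC, TTTCGCGC and TTTGCCGC on both strands without mismatch. They were present for 11 of the 20 replication genes (55%) and 1 of the 18 mitotic genes (5.56%, Cdk1), against 2.6% of all genes. The CHR letters TTTGAA were present for 3 replication genes (15%) and 12 mitotic genes (66.7%), against 20.2% of all genes. The CCAAT letters were present for 65% of replication and 83.3% of mitotic genes, against 41.1% of all genes. In the part before the start site alone, E2F letters were in 35%, 5.56% and 2.16% and CHR letters in 15%, 38.9% and 18.3% of replication, mitotic and all genes. GGGGCC, the core of a GC-rich sequence that Zac1 binds in vitro, was present for 15% of replication and 33.3% of mitotic genes, against 27.3% of all genes. A match is a run of letters, not a shown binding site, and adjacent matches on opposite strands can overlap, as in Mcm5. The following stretches of 160 bases end just before the RefSeq start site. They show 3 replication genes with E2F letters and 3 mitotic genes with CHR letters. The Cdc6 stretch lies inside the span of that gene in the GENCODE M21 gene models (chr11:98907801-98923940). Those of Cdc20 and Cdk1 reach into theirs. E2F and CHR matches on either strand are in capitals, and Cdk1 holds both.
Mcm5, chr8:75109349-75109508, plus strand: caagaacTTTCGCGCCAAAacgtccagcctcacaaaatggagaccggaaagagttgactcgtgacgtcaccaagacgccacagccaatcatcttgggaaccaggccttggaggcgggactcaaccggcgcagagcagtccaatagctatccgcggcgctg
Mcm6, chr1:128359706-128359865, minus strand: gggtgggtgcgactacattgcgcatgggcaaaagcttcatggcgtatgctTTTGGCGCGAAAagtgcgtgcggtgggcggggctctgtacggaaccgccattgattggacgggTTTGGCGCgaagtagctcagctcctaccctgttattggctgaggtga
Cdc6, chr11:98907991-98908150, plus strand: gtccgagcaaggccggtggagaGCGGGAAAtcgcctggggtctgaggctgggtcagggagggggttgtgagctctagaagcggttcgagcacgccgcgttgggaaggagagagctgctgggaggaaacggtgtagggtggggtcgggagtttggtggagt
Cdc20, chr4:118437344-118437503, minus strand: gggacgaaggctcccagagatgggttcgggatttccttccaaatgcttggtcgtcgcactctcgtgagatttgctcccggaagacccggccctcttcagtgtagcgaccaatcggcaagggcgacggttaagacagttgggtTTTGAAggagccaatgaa
Top2a, chr11:99024190-99024349, minus strand: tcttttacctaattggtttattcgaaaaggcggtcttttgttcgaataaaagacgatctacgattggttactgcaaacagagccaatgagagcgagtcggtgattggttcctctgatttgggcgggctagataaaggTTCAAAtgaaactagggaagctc
Cdk1, chr10:69352913-69353072, minus strand: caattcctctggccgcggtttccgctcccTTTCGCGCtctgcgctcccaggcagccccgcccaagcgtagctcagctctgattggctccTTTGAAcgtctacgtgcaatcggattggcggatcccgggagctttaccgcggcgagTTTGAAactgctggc

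No replication or mitosis gene passed the edgeR test in either direction. Of the 46 that could be tested, 0 were higher and 0 lower in Zac1 at an adjusted p under 0.05, where 3.12% of all 12130 tested genes were called higher and 0.668% lower. At an unadjusted p under 0.05, 3 genes were higher (Plk1, Tacc3 and Uhrf1) and 0 lower, where 9.41% and 6.43% of all genes were. DESeq2 called 0 of the 46, against 3.53% of all genes in both directions. Voom with sample quality weights called 1, Plk1, against 10.7% of all genes. The log2 fold changes ran from -0.059 (Cdc25c) to 0.17 (Plk1). Leaving out libraries changed this in edgeR. Without Zac1 4 the test called Plk1, beside 584 of all genes called higher and 379 lower. Without both Zac1 4 and EGFP 1 it called Plk1 and Lig1, beside 853 of all genes called higher and 608 lower. In each case the members called were higher in Zac1. The fit without both libraries shared its variance almost wholly over genes. Its prior degrees of freedom were 1560, against 10 in the main fit. In counts left unscaled, which keep the greater depth of the Zac1 libraries, 34 of the 46 were called higher, beside 3365 of all genes.

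The values lay slightly toward Zac1. The log2 fold change was above 0 for 38 of 46 genes (82.6%) and below 0 for 8, against 49.5% of all genes above 0, and its median was 0.062, against -0.002 over all genes. Its mean was 0.054 over the 46 genes and 0.053 over all genes, whose values spread far wider, from -2.79 to 10.83. All Zac1 libraries exceeded all EGFP libraries for 13 genes (28.3%), where this held for 11.9% of all genes, and the opposite held for 0 genes, where it held for 8.75% of all genes. These 13 were Mcm4, Mcm5, Rfc3, Pole, Fen1, Lig1, Uhrf1, Plk1, Kif20a, Kif23, Tacc3, Tpx2 and Birc5. Without Zac1 4 and EGFP 1, the counts without overlap were 29 above and 3 below, where 25.7% and 27.1% of all genes were, and 37 genes had a log2 fold change above 0. The 8 genes below 0 were Mcm6, Pola1, Rrm1, Ccna2, Ccnb2, Bub1, Cdc25c and Nusap1; of these, Pola1 and Ccnb2 were above 0 with upper-quartile scaling. In unscaled counts, where the deeper Zac1 libraries move the median of all genes to 0.201, the 8 lay at 0.14 to 0.19, below that shift. Genes of one pathway can move together within a library, so such counts over genes are not counts of independent events. Together the genes took 0.883%, 0.868% and 0.865% of the counted reads in Zac1 4, 5 and 6 and 0.855%, 0.83% and 0.828% in EGFP 1, 2 and 3, with no overlap between the groups.

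**Figure D1:**
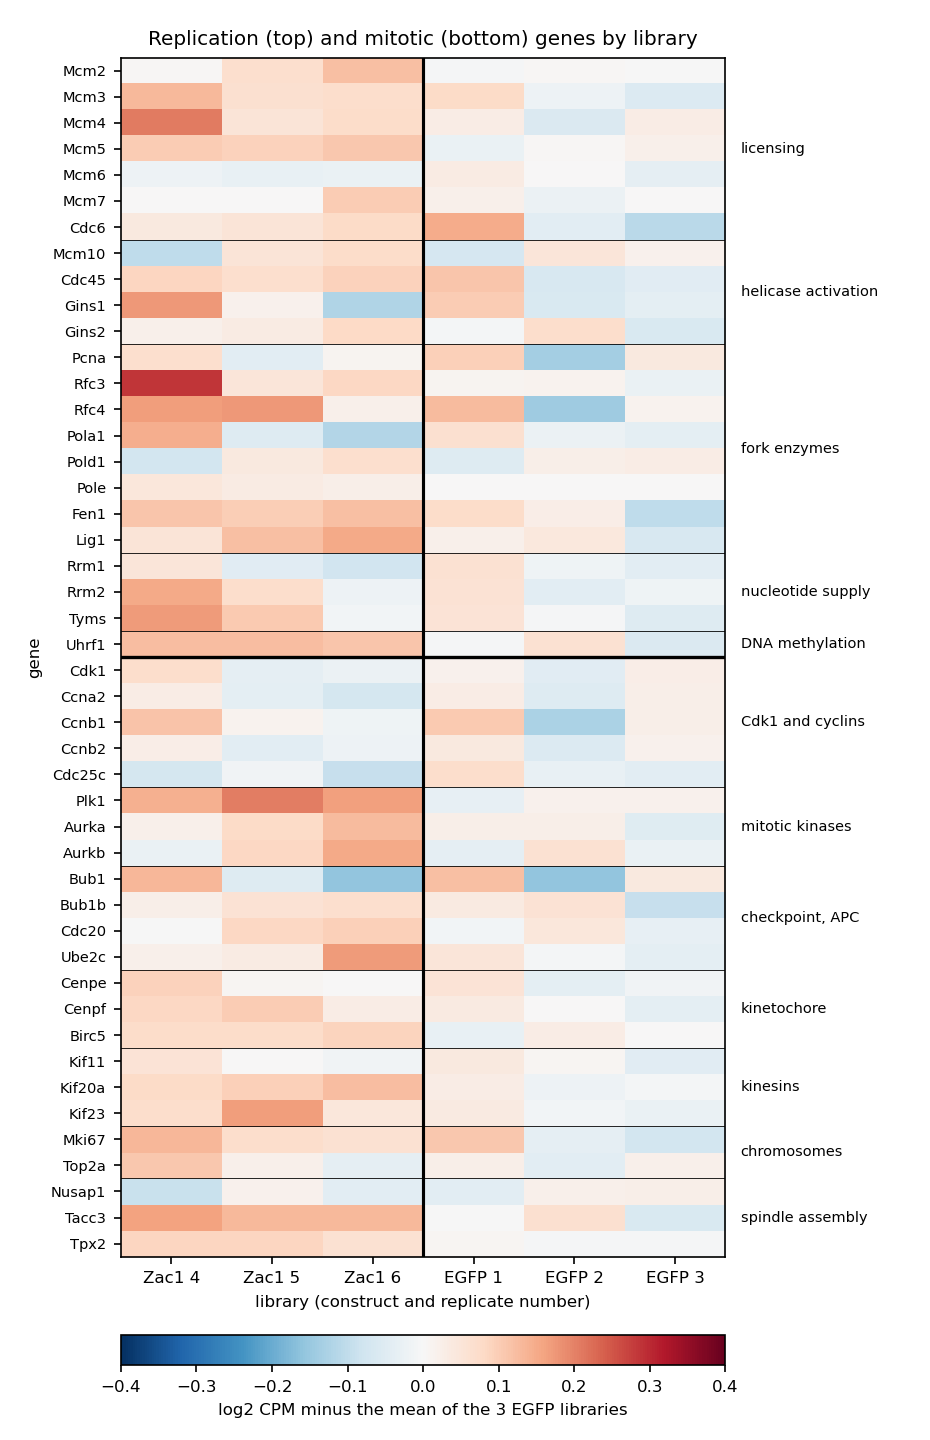
Each row is a tested replication or mitosis gene and each column a library, with Zac1 libraries left of EGFP libraries; colour gives the log2 CPM minus the mean of that gene over the 3 EGFP libraries, red above and blue below it, and thin lines part the roles. Most tiles of the Zac1 columns are pale red, EGFP 1 is pale red for most genes and EGFP 3 pale blue, and few tiles are deeply coloured (Rfc3 in Zac1 4 is the deepest).

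The intervals of the members were narrow. The SE of the log2 fold change ran from 0.044 (Mcm6) to 0.094 (Rfc4), with a median of 0.054, against 0.083 over all genes. The lowest count of a tested member in any library was 262 reads (Rfc4) and the highest 13913 (Mki67). The set of all genes includes those averaging as few as 10 reads per library, and SEs at matched counts were not compared. The 95% intervals held 0 for 43 of the 46 genes, all but Plk1, Tacc3 and Uhrf1. The lowest lower bound was -0.22 for Cdc25c, a change of -14.4% in Zac1, and the highest upper bound 0.32 for Rfc4, a change of 24.8%. Among the replication genes the lowest bound was -0.16 for Gins1 (-10.3%), and among the mitotic genes the highest was 0.28 for Plk1 (21.1%).

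**Figure D2:**
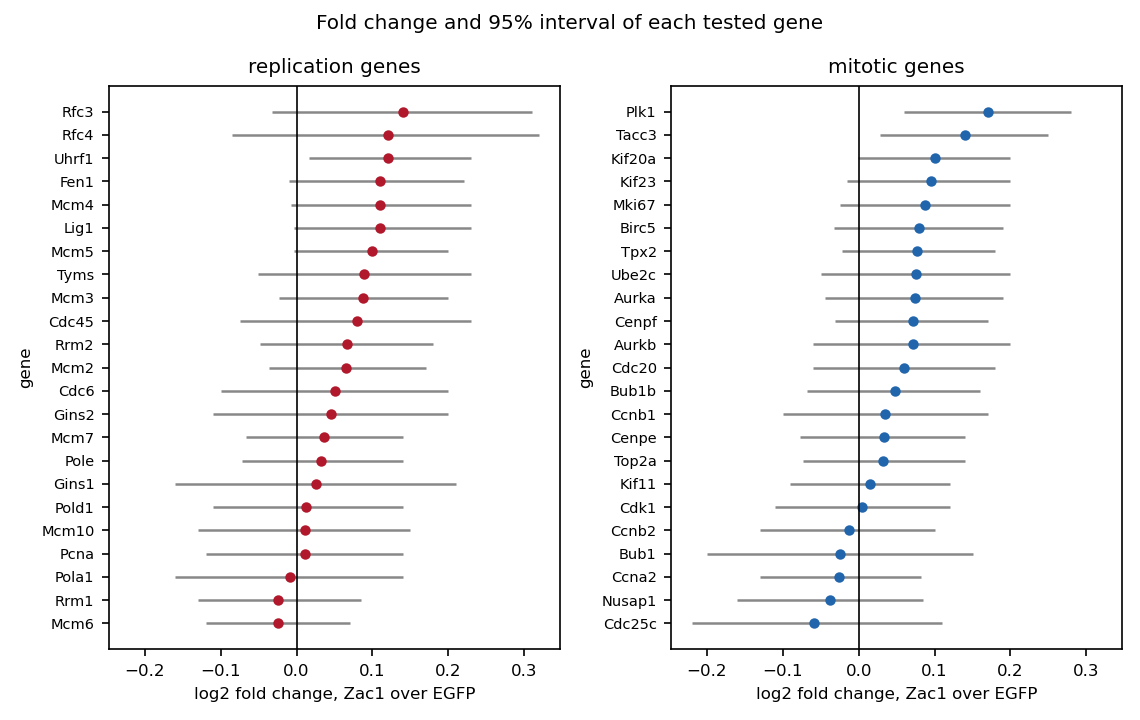
Points are log2 fold changes, Zac1 minus EGFP, of the tested genes, and bars their 95% intervals from the edgeR fit, with replication genes in the left panel and mitotic genes in the right, each ordered by fold change. No interval extends below -0.22 or above 0.32, and those of Plk1, Tacc3 and Uhrf1 do not hold 0.

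Licensing genes load the Mcm2-7 helicase onto origins before S phase, and 6 of the 7 tested had a log2 fold change above 0 (median 0.065), with 0 past the test. Mcm5, a subunit of the helicase (ENSMUSG00000005410, chr8:75109569-75128439, plus strand), had 204, 203 and 205 CPM in Zac1 4, 5 and 6 and 187, 191 and 193 CPM in EGFP 1, 2 and 3. The Zac1 values were nearly equal and all above the EGFP values, and the log2 fold change of Mcm5 was 0.10 (SE 0.047, adjusted p = 0.331). Mcm6, another subunit, had 458, 455 and 456 CPM in Zac1 and 475, 465 and 453 CPM in EGFP. The groups overlapped, with EGFP 1 the highest library and EGFP 3 the lowest, and its log2 fold change was -0.024 (SE 0.044, adjusted p = 0.847). Mcm4 also lay higher in all Zac1 libraries, with 213, 191 and 194 CPM against 188, 177 and 188 CPM in EGFP. Mcm2 (0.065), Mcm3 (0.087), Mcm7 (0.036) and the helicase loader Cdc6 (0.051) had log2 fold changes above 0 with overlapping groups. For Cdc6 the highest library of all was EGFP 1, at 69.9 CPM.

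Cdt1, the licensing factor that works with Cdc6, was listed at 0 in all 6 libraries and could not be tested. It lies at chr8:122568015-122573554 on the plus strand of GRCm38, inside the span of the predicted gene Gm20388 (chr8:119910841-124345722, plus strand) without sharing exon bases with it. All 36 protein-coding genes inside that span on its strand were listed at 0, among them Rpl13, Cox4i1 and Map1lc3b, which most cells express, while 34 of 35 on the opposite strand had reads, among them Gins2. Across the rest of the genome, 144 of 147 protein-coding genes enclosed by another gene on the same strand without shared exon bases were at 0 (98%), against 141 of 332 enclosed on the opposite strand (42.5%) and 5176 of 20854 enclosed by none (24.8%). The 0 of Cdt1 is therefore a listed value and no measure of its expression. The spans of 13 members overlap a protein-coding gene on the opposite strand. These are Ccna2, Cdc20, Cdc25c, Cdc45, Fen1, Gins2, Kif20a, Lig1, Mcm7, Nusap1, Rfc4, Tacc3 and Ube2c. The strand setting of the counting is not stated, although the share of enclosed genes at 0 differed by strand (98% against 42.5%). Whether reads of each such pair were told apart was not tested.

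Helicase activation genes turn the loaded helicase into a working fork, and all 4 had log2 fold changes above 0, from 0.011 to 0.08, with overlapping groups. Cdc45, a part of the active helicase, had 37.3, 36.8 and 37.4 CPM in Zac1 and 37.9, 33.6 and 34 CPM in EGFP. EGFP 1 exceeded all Zac1 libraries and the other EGFP libraries lay below them, and the log2 fold change of Cdc45 was 0.08 (SE 0.072, adjusted p = 0.639). Those of the GINS subunits Gins1 and Gins2 were 0.025 and 0.045, and that of Mcm10, which helps start the fork, was 0.011.

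Genes of the fork itself had log2 fold changes above 0 in 7 of 8 cases (median 0.069), and 4 of the 8 were without overlap, Zac1 above, as were 11.9% of all genes. Lig1, the ligase that joins Okazaki fragments, had 142, 149 and 152 CPM in Zac1 and 139, 141 and 131 CPM in EGFP. The groups were apart by a narrow margin, between Zac1 4 and EGFP 2, and the log2 fold change of Lig1 was 0.11 (SE 0.053, adjusted p = 0.333). Rfc3, a subunit of the loader of the sliding clamp, had 34.9, 29.6 and 30.3 CPM in Zac1 and 28.8, 28.9 and 28.1 CPM in EGFP. Zac1 4 was well above the rest, and the groups did not overlap. Its log2 fold change, 0.14 (SE 0.081, adjusted p = 0.428), was the highest among replication genes. Fen1, the nuclease that trims Okazaki fragments, had 190, 188 and 191 CPM in Zac1 and 185, 179 and 164 CPM in EGFP, and Pole, the leading-strand polymerase, 132, 131 and 130 CPM against 128 CPM in each EGFP library. Both were without overlap, although the log2 fold change of Pole was 0.032. The clamp Pcna (0.011), the lagging-strand polymerase subunit Pold1 (0.013), the loader subunit Rfc4 (0.12) and the primase-bound polymerase Pola1 (-0.0088) overlapped between groups. Pola1 had 126 CPM in Zac1 4 and 105 CPM in Zac1 6, with the EGFP libraries between them at 111 to 119 CPM.

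The genes for nucleotide supply overlapped between groups in all 3 cases. Tyms, which makes thymidylate, had 69, 65.9 and 60.9 CPM in Zac1 and 63.7, 61.1 and 59.2 CPM in EGFP, or 0.089 on the log2 scale (SE 0.065, adjusted p = 0.553). Zac1 4 was the highest and EGFP 3 the lowest library. Rrm1, the large subunit of ribonucleotide reductase, had 337, 316 and 309 CPM in Zac1 and 340, 322 and 317 CPM in EGFP (log2 fold change -0.024, SE 0.051, adjusted p = 0.867), while its partner Rrm2 had 413, 390 and 366 CPM in Zac1 and 387, 361 and 367 CPM in EGFP (0.067, SE 0.054, adjusted p = 0.588). The intervals of the 2 subunits overlapped widely, at -0.13 to 0.085 for Rrm1 and -0.048 to 0.18 for Rrm2.

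Uhrf1, which brings the maintenance DNA methyltransferase to newly copied DNA (ENSMUSG00000001228, chr17:56303321-56323486, plus strand), had 211, 211 and 209 CPM in Zac1 and 193, 202 and 186 CPM in EGFP. The 3 Zac1 libraries were nearly equal and all lay above EGFP. The log2 fold change was 0.12 (SE 0.05, 95% interval 0.016 to 0.23), with an edgeR adjusted p of 0.237 (0.0276 unadjusted), which does not pass.

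Cdk1, its cyclins and its phosphatase, which drive entry into mitosis, had the lowest median of the 12 roles, -0.013. Of the 5 log2 fold changes 2 were above 0, and the groups overlapped for all 5. Cdk1, the kinase itself, had 144, 134 and 135 CPM in Zac1 and 139, 133 and 140 CPM in EGFP, with a log2 fold change of 0.0047 (95% interval -0.11 to 0.12, adjusted p = 0.978); it was -0.00048 with median-of-ratios scaling. Cdc25c, the phosphatase that activates Cdk1, had 25.3, 26.3 and 24.9 CPM in Zac1 and 27.9, 26 and 25.8 CPM in EGFP. EGFP 1 was the highest library, and Zac1 5 lay among the EGFP values; the log2 fold change of Cdc25c was -0.059 (SE 0.077, adjusted p = 0.769). The cyclins Ccna2 (-0.026), Ccnb2 (-0.013) and Ccnb1 (0.034) lay near 0, and the lowest library for Ccnb1 was EGFP 2 at 127 CPM, where the other libraries had 137 to 150 CPM.

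The other mitotic kinases all had log2 fold changes above 0. Plk1, which acts in centrosome maturation, spindle assembly and mitotic exit (ENSMUSG00000030867, chr7:122159439-122169873, plus strand), had 132, 138 and 134 CPM in Zac1 and 117, 121 and 121 CPM in EGFP. The groups were separate, with a gap wider than the range of either group. The means were 135 ± 2.84 CPM in Zac1 and 120 ± 2.14 CPM in EGFP (SD, n = 3 each), a log2 fold change of 0.17 (SE 0.05, 95% interval 0.06 to 0.28). Its p was 0.00483 before and 0.0904 after edgeR's adjustment; it was 0.0142 after adjustment with voom quality weights and 0.0498 in edgeR without Zac1 4, both under the threshold, and over all alternatives it ran from 0.00146 (unscaled counts) to 0.4 (without Zac1 5). Aurka, a spindle pole kinase, and Aurkb, the kinase of the chromosomal passenger complex, had log2 fold changes of 0.074 and 0.071 with overlapping groups.

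The spindle checkpoint delays anaphase until chromosomes are attached, and its target is the anaphase-promoting complex, a ubiquitin ligase. All 4 genes of this role overlapped between groups. Ube2c, the ubiquitin-conjugating enzyme of that complex, had 100, 101 and 111 CPM in Zac1 and 102, 98.1 and 96 CPM in EGFP, with Zac1 6 well above the rest, and its log2 fold change was 0.075 (SE 0.058, adjusted p = 0.578). Those of the checkpoint kinases Bub1 and Bub1b were -0.025 and 0.048, and that of Cdc20, the activator of the complex, was 0.06. Bub1 was the most scattered of them, with 103 to 126 CPM in Zac1 and 103 to 125 CPM in EGFP.

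Genes of the kinetochore and the passenger complex had log2 fold changes of 0.033 to 0.079. Birc5, the passenger protein survivin, had 101, 101 and 102 CPM in Zac1 and 94, 98 and 96 CPM in EGFP. The groups did not overlap, and its log2 fold change was 0.079 (SE 0.052, adjusted p = 0.5). The kinetochore motor Cenpe (0.033) and the kinetochore protein Cenpf (0.071) overlapped between groups, with 301 CPM for Cenpf in Zac1 6 and 302 CPM in EGFP 1.

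The mitotic kinesins move spindle microtubules, and 2 of 3 were without overlap, Zac1 above, as were 11.9% of all genes. Kif20a, which acts in cytokinesis, had 245, 248 and 253 CPM in Zac1 and 237, 229 and 231 CPM in EGFP. All Zac1 libraries were higher, and its log2 fold change was 0.10 (SE 0.047, adjusted p = 0.322). Kif23, of the centralspindlin complex, had 215, 230 and 211 CPM in Zac1 and 210, 203 and 201 CPM in EGFP, with Zac1 6 and EGFP 1 almost equal. Kif11, which separates the spindle poles, had a log2 fold change of 0.015 and overlapped.

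Of the 3 spindle assembly factors, 2 had a log2 fold change above 0. Tacc3, which links and stabilises spindle microtubules (ENSMUSG00000037313, chr5:33658128-33678995, plus strand), had 139, 136 and 136 CPM in Zac1 and 124, 130 and 119 CPM in EGFP. The groups were separate, and its log2 fold change was 0.14 (SE 0.053, 95% interval 0.028 to 0.25), with an edgeR adjusted p of 0.192 (0.0182 unadjusted). Tpx2, which activates Aurora A on the spindle, had 248, 248 and 244 CPM in Zac1 and 235, 233 and 233 CPM in EGFP, without overlap and with a log2 fold change of 0.077. Nusap1, which bundles microtubules near chromosomes, had 71.7, 77.1 and 74 CPM in Zac1 and 74, 77.3 and 77.4 CPM in EGFP. Its groups overlapped, and its log2 fold change was -0.038 (SE 0.057, adjusted p = 0.803).

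Mki67, the proliferation marker that coats mitotic chromosomes, had 794, 760 and 756 CPM in Zac1 and 780, 707 and 689 CPM in EGFP. EGFP 1 lay among the Zac1 libraries and the other EGFP libraries well below them, and the log2 fold change of Mki67 was 0.087 (SE 0.052, adjusted p = 0.455). Top2a, the topoisomerase that untangles sister DNA, had 779, 732 and 704 CPM in Zac1 and 734, 701 and 732 CPM in EGFP, with a log2 fold change of 0.032.

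Replication and mitotic genes both lay slightly toward Zac1 in their medians, while their means were near that of all genes. The mean log2 fold change was 0.059 over 23 replication genes and 0.048 over 23 mitotic genes, against 0.053 over all tested genes. These means cover unlike spreads, -2.79 to 10.83 over all tested genes and -0.059 to 0.17 over the members. The medians were 0.065 and 0.060, against -0.002 over all tested genes. Of the replication genes, 20 were above 0 and 7 (30.4%) did not overlap, and of the mitotic genes 18 and 6 (26.1%). Over all tested genes, 49.5% were above 0 and 11.9% were without overlap, Zac1 above. The mean log2 CPM of the replication genes was 6.960, 6.925 and 6.918 in Zac1 4, 5 and 6 and 6.915, 6.861 and 6.850 in EGFP 1, 2 and 3, which is 6.934 ± 0.022 against 6.875 ± 0.035 (SD, n = 3 each). The groups were separate by a narrow margin, between Zac1 6 and EGFP 1. For the mitotic genes the values were 7.290, 7.282 and 7.268 in Zac1 and 7.261, 7.219 and 7.216 in EGFP, which is 7.280 ± 0.011 against 7.232 ± 0.025. The groups did not overlap, and again Zac1 6 and EGFP 1 were closest. The mean log2 CPM of all tested genes was also without overlap, Zac1 above. It was 4.669, 4.687 and 4.689 in Zac1 4, 5 and 6 and 4.614, 4.644 and 4.636 in EGFP 1, 2 and 3. Replication minus mitotic level was -0.346 ± 0.014 in Zac1 and -0.357 ± 0.010 in EGFP, a difference of 0.011 with overlapping groups. Median transcript GC was 49.2% in the replication genes and 47.4% in the mitotic genes, against 49.4% over all tested genes, and with offsets for GC the difference between the class means was -0.003. The class means carry no test.

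**Figure D3:**
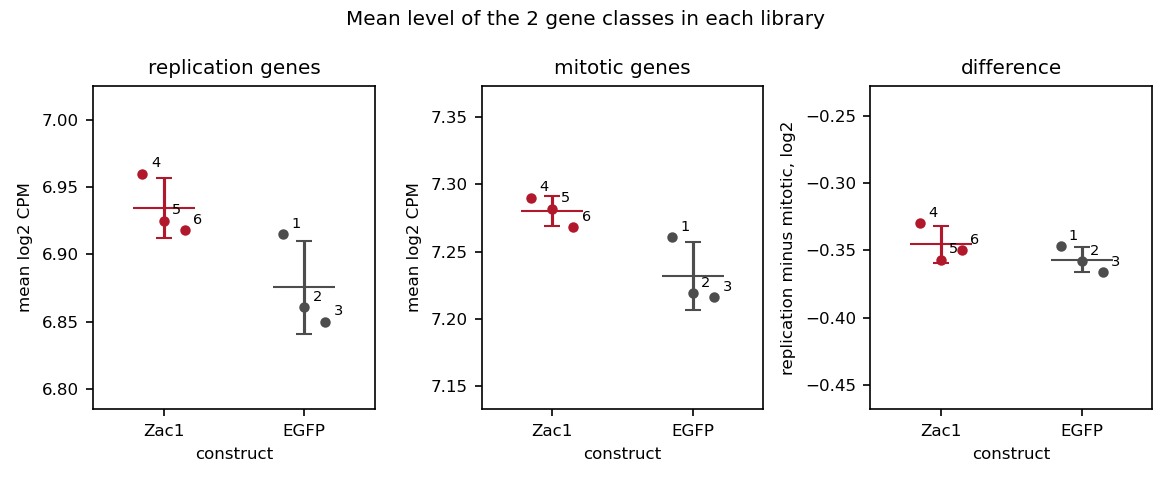
The panels give the mean log2 CPM of the tested replication genes, of the tested mitotic genes, and the replication mean minus the mitotic mean, each point being a library marked by its number, with Zac1 left of EGFP and bars for the group mean ± SD; the axes span the same range of log2 units but do not start at 0. The Zac1 points lie above the EGFP points for both classes, and the points of the groups overlap in the difference between classes. The mean over all tested genes, not drawn, was also higher in all Zac1 libraries than in any EGFP library.

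Within each group 1 library had the highest mean in both classes. In Zac1 the margin was narrow for the mitotic genes (7.290 in Zac1 4, 7.282 in Zac1 5). EGFP 1 was above the EGFP mean by 0.040 (replication) and 0.029 (mitotic), and it was the highest EGFP library for 28 of the 46 genes, against 35% of all genes. EGFP 3 was below it by 0.025 and 0.016 and was the lowest EGFP library for 21 genes, against 28.7% of all genes. Zac1 4 was above the Zac1 mean by 0.025 and 0.010 and the highest Zac1 library for 23 genes, against 37.3% of all genes. It was also the lowest Zac1 library for 15 genes, against 41.5% of all genes. Zac1 5 was highest in its group for 6 genes and Zac1 6 for 17, against 26.4% and 36.4% of all genes. Zac1 5 was lowest in its group for 11 genes and Zac1 6 for 20, against 23.8% and 34.7% of all genes. Over all 6 libraries, Zac1 4 was the highest for 19 genes and Zac1 6 for 15, while EGFP 3 was the lowest for 18 and EGFP 2 for 14. The shares of all genes beside these 6-library counts were not computed. Zac1 4 and EGFP 1, which stood apart on the second component, thus had the highest class means of their groups; with both left out, the mean log2 fold changes were 0.070 and 0.061.

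Levels per kilobase of exon ranged widely among the genes. Averaged over the 6 libraries, Rrm2 was highest at 137 CPM per kb, followed by Mcm6 (98.7), Pcna (81.6), Top2a (81) and Ccnb2 (79.8), while Cdc25c (5.29), Gins2 (7.51), Rfc3 (8.33) and Mcm10 (9.39) were lowest. The SD of Rrm2 was 8.4 in Zac1 and 4.93 in EGFP, so that it lay clear of Mcm6 (0.307 and 2.39); Pcna, Top2a and Ccnb2 did not differ beyond their spread. The 6 helicase subunits, which work in equal numbers, had levels of 57.9 (Mcm2), 68.7 (Mcm3), 53.5 (Mcm4), 49.4 (Mcm5), 98.7 (Mcm6) and 73.5 (Mcm7) CPM per kb, a 2-fold range. The lengths are the joined exons of GENCODE M21, which need not be the annotation used for counting, and unused exons lower such a level.

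**Figure D4:**
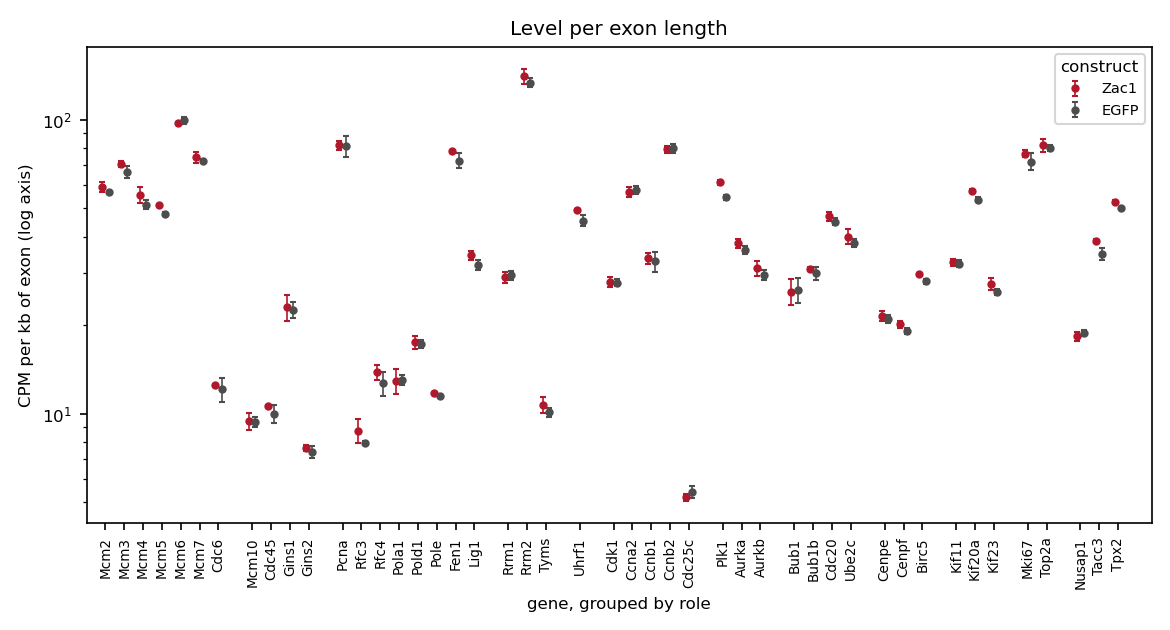
For each tested gene, grouped by role along the axis, points give the mean level in CPM per kb of exon on a log axis and bars the SD over 3 libraries, Zac1 in red left of EGFP in grey. The genes spread from 5.29 (Cdc25c) to 137 (Rrm2) over all libraries, while both means of a gene lie close together.

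Other genes of the same pathways came from lists compiled around these genes, and none passed the edgeR test. Of 40 further replication genes 0 were called by edgeR or DESeq2 (voom called 4), 27 had a log2 fold change above 0, the values ran from -0.15 to 0.26 and the median was 0.049. Their smallest p belonged to Ticrr, which starts helicase activation, with 57.3, 57.5 and 56.2 CPM in Zac1 and 51.5, 48 and 43.3 CPM in EGFP. Its log2 fold change was 0.26 (SE 0.071, edgeR adjusted p = 0.0589). Over the alternatives its adjusted p ran from 0.000471 (edgeR without Zac1 4 and EGFP 1) to 0.309 (edgeR without EGFP 3). The lowest value came from the fit that shared its variance almost wholly over genes. Clspn, a fork and checkpoint protein, followed at 0.20 (adjusted p = 0.109). Of 50 further mitosis genes 0 were called by edgeR or DESeq2 (voom called 2), 38 were above 0 and the median was 0.051; Lmnb1, a lamin of the nuclear envelope, had 0.16 (adjusted p = 0.135) and the kinesin Kif14 0.15 (adjusted p = 0.24). Unadjusted p was under 0.05 for 6 genes in each of these lists, all higher in Zac1, where 9.41% of all genes were. Voom called 10.7% of all genes, and 49.5% of all genes had a log2 fold change above 0.

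Of 22 transcription regulators of the cycle, 0 were called by edgeR or DESeq2 and 1 by voom, 2 had an unadjusted p under 0.05, 13 were above 0 and the median was 0.022. Mybl2, the B-Myb factor of mitotic genes, had 41.6, 44.8 and 47.8 CPM in Zac1 and 39.1, 40 and 32.8 CPM in EGFP, a log2 fold change of 0.26 (adjusted p = 0.116). E2f7, a repressor of E2F targets, had 0.24 (adjusted p = 0.255). Of 13 tested Cdk inhibitors and arrest genes, 1 rose and 0 fell in edgeR, DESeq2 called 1 and voom 3, 7 were above 0 and the median was 0.031. Of all tested genes, edgeR called 3.12% higher and 0.668% lower, DESeq2 called 3.53% and voom 10.7%. At an unadjusted p under 0.05 in edgeR, 9.41% of all genes were higher and 6.43% lower, and 49.5% of all genes lay above 0. The gene past the edgeR test was Gadd45b, a stress-response gene, with 53.9, 57.6 and 56.6 CPM in Zac1 and 31.4, 28.9 and 31.9 CPM in EGFP, which gives 0.87 on the log2 scale (SE 0.069, adjusted p = 7.48e-06). Its 3 Zac1 values all lay far above its EGFP values. At an unadjusted p under 0.05 there were also Btg2, an antiproliferative gene, with a log2 fold change of 0.29 (adjusted p = 0.0881), and Ccng1, a p53 target, with -0.15 (adjusted p = 0.187); both were named after their values were seen.

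**Figure D5:**
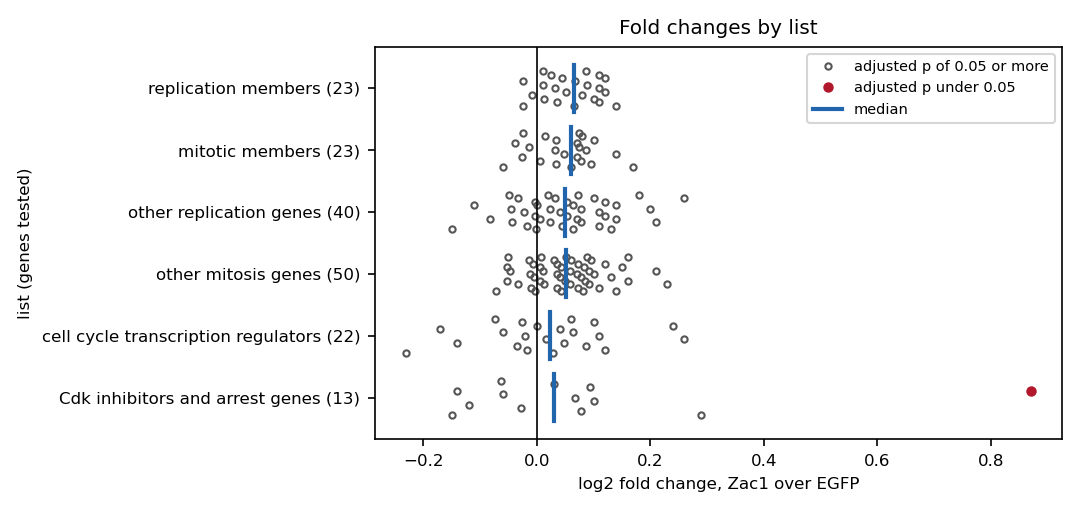
Points are log2 fold changes, Zac1 minus EGFP, of the tested genes in each list, filled red where the edgeR adjusted p is under 0.05, and blue bars are the list medians. Medians of all lists lie between 0.022 and 0.065, and Gadd45b at 0.87 is the one gene past the test.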

How the data were processed

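PolyA RNA-seq of 3 Zac1 and 3 EGFP libraries was analysed from 1 table of read counts per gene that the authors deposited, with no pooling. FastQC, STAR, HTSeq and DESeq2 were used, per the submitters' processing notes, without versions or settings. The genome build is not given in the sources used here, nor are the gene models. The library kit was directional, per the labels' protocols; the strand setting of the counting is not stated. The deposited table is called normalized, but it holds whole numbers with unequal totals and was treated as unscaled counts. Ensembl IDs were matched to GENCODE M21 symbols (49326 of 49585; 259 unmatched).

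The 12130 genes averaging 10 or more reads per library entered a two-sided quasi-likelihood test in edgeR 4.0.16 (R 4.3.3, TMM factors) and Benjamini-Hochberg adjustment over all of them; all adjusted p-values are from this test unless another is named. SE is the log2 fold change divided by the root of F, and intervals use the t distribution of the fit. CPM and CPM per kb were computed from the deposited counts. With 3 libraries against 3, an exact permutation test cannot go below p = 0.1, so none was run. Each pair of libraries of 1 group differed beyond sampling noise (chi-square per degree of freedom 2.31 to 8.98). Promoter sequences are from RefSeq. The fit was tested on simulated data.

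The genes and lists were chosen with earlier results of these data known. Values in every library are given for the gene with the smallest p in each of 12 roles, the 2 highest and 2 lowest fold changes of each class, and Plagl1, and for other lists the genes past the test or the 2 with the smallest p; further genes given by library were chosen after their values were seen. Alternatives were other scalings and filters, robust variance, GC offsets, limma 3.58.1 (log2 CPM, or voom with quality weights), DESeq2 1.42.0 and leaving out libraries. One hepatocyte marker is not analysed here.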

Additional observations from a re-analysis of the deposited data

How the results depend on the processing

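No paired analysis was possible because the groups share no replicate number. Of 874 pairs of a gene and an alternative, 786 kept direction and side of the threshold, 38 passed the test newly (34 of them in unscaled counts), 0 lost a call and 50 turned direction. Unscaled counts, which keep the deeper Zac1 libraries, moved the median of all genes to 0.201, beside -0.002 with TMM, called 34 of the genes higher (3365 and 23 of all genes higher and lower, beside 378 and 81) and gave class means of 0.261 (replication) and 0.25 (mitotic) and 42 genes without overlap (44.7% of all genes). Voom called 1 (all genes 797 and 500); without EGFP 1 and Zac1 4 together 2 were called (853 and 608), with 29 and 3 without overlap. Leaving out each library in turn gave 0 to 1 called higher, 13 to 22 without overlap above (14.6% to 20.5% of all genes) and 0 to 2 below (11.7% to 19.3%), and 187 (without Zac1 5) to 584 (without Zac1 4) and 19 (without Zac1 5) to 379 (without Zac1 4) of all genes. All genes called were 731 and 248 without a filter, and 190 and 51 at a mean count of at least 50. The median of all genes was 0.014 with upper-quartile scaling, 0.015 with totals without Plagl1 and 0.021 without a filter. GC offsets gave -0.003 for replication minus mitotic. The cause of these shifts was not tested beyond what each setting changes by construction.

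Direction turned for single genes near 0. In unscaled counts Mcm6 was 0.18, Pola1 0.19, Rrm1 0.18, Ccna2 0.17, Ccnb2 0.19, Bub1 0.17, Cdc25c 0.14 and Nusap1 0.17. With GC offsets Mcm7 was -0.00035, Pola1 0.059, Pold1 -0.10, Rrm1 0.028, Ccna2 0.00052, Bub1 0.048 and Nusap1 0.031. With upper-quartile scaling and totals without Plagl1, Pola1 was 0.0063 and 0.0072 and Ccnb2 0.003 and 0.0036. Pcna was -0.014 with voom. Cdk1 was -0.00048 with median-of-ratios scaling, -0.00051 with DESeq2, -0.021 with voom and -0.014 without both libraries. Without single libraries the ranges were -0.021 to 0.064 for Mcm10, -0.0052 to 0.13 for Cdc6, -0.053 to 0.10 for Gins1, -0.055 to 0.065 for Pcna, -0.091 to 0.047 for Pola1, -0.015 to 0.053 for Pold1, -0.061 to 0.0088 for Rrm1, -0.029 to 0.024 for Cdk1, -0.026 to 0.09 for Ccnb1, -0.042 to 0.012 for Ccnb2, -0.10 to 0.04 for Bub1, -0.012 to 0.037 for Kif11 and -0.0084 to 0.066 for Top2a. The lowest count of a tested gene in a library was 262 reads.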
